A study of Mus musculus with 10 samples.

Results

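The comparison set splenic Ly6C-high monocytes of Foxp3DTR mice against those of wild-type (WT) mice, both collected on day 5 after experimental myocardial infarction (MI). It comprised 7 of the 10 libraries of the series, 4 labelled Foxp3DTR MI (numbers 1 to 4) and 3 labelled WT MI (numbers 2, 3 and 4). The 3 libraries of sham-operated WT mice were kept out of the fit, and their levels are given only beside single results. Of the 24421 gene symbols in the deposited tables, 12553 (51.4%) reached 1 transcript per 1000000 (TPM) in at least 3 of the 7 libraries and were tested. Values are listed throughout in the order of the library numbers, 2, 3 and 4 for WT MI and 1, 2, 3 and 4 for Foxp3DTR MI.

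Foxp3DTR mice carry a receptor for diphtheria toxin of human origin that the Foxp3 promoter drives, and injected toxin therefore kills cells that use this promoter. According to the methods the mice were males of 8 to 10 weeks, and toxin was given as 500 ng on days 2 and 1 before surgery and as 250 ng on day 2 after it. The labels do not say for each library whether the WT mice received toxin as well, and it is inferred here from the methods that they did. The cells were enriched by removal of T and B cells on magnetic columns and then sorted for CD115, CD11b, F4/80 and a high level of Ly6C and against Ly6G. Each library was made from 20 to 50 pg of RNA and is taken as 1 animal, which the labels do not state, so that p-values measure the spread between these libraries.

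Ly6C-high monocytes leave the bone marrow and the spleen, enter inflamed tissue and mature there into macrophages, whereas those that stay in the blood can convert into Ly6C-low patrolling cells under control of the transcription factor Nr4a1. Regulatory T cells, which depend on Foxp3, restrain conventional T cells and the cytokines that these release. Interferon-gamma, a product of activated T and NK cells, signals through Jak kinases and induces in monocytes GTPases of cell-autonomous defence, chemokines that attract T cells, the immunoproteasome and the inhibitory ligand PD-L1.

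The genes of the sorting gate were present at high levels in all 7 libraries, and none of them passed the test. Csf1r, which encodes the sort marker CD115, was measured at 692, 726 and 591 TPM in the WT MI libraries and 529.5, 549.9, 657 and 519 TPM in the Foxp3DTR MI libraries (log2 fold change -0.49, adjusted p = 0.0626). Ly6c2, one of 2 near-identical genes for the marker Ly6C, was at 1985, 2100.2 and 2689 TPM in the WT MI libraries and 3667, 3716, 4489.5 and 4757 TPM in the Foxp3DTR MI libraries (adjusted p = 0.179). Every Foxp3DTR library lay above every WT library for Ly6c2, whereas the ranges of Csf1r touched as deposited and parted only after scaling. Itgam (CD11b), Adgre1 (F4/80) and Ccr2, the chemokine receptor of Ly6C-high monocytes, overlapped between the groups, with adjusted p of 0.368, 0.659 and 0.860. A list of 9 gate and identity genes summed to 36245 to 40002 TPM in WT MI and 24608 to 32743 TPM in Foxp3DTR MI. Without Lyz2, its most abundant member, the sums were 5580 to 6178.5 TPM in WT MI and 7862 to 9008 TPM in Foxp3DTR MI. The groups overlapped in neither sum.

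Foxp3 itself gave no view of the depletion in these sorted cells, at 5.79, 5.88 and 0.763 TPM in the WT MI libraries and 5.82, 4.87, 5.52 and 5.02 TPM in the Foxp3DTR MI libraries (log2 fold change 0.36, SE 0.45, adjusted p = 0.689). Only WT library 4 was low. The 6 genes of a regulatory T cell list summed to 13.3, 13.3 and 4.55 TPM in the WT MI libraries and 15.8, 22.7, 19.1 and 19.0 TPM in the Foxp3DTR MI libraries, with none of the 5 tested past the threshold. Every Foxp3DTR library lay above the WT libraries in this sum as deposited. After division by the scaling factors (1.15 for Foxp3DTR library 1, 0.929 and 0.955 for WT libraries 2 and 3), Foxp3DTR library 1 no longer lay above WT libraries 2 and 3. Ppp1r3fos, a neighbouring gene whose annotated span overlaps that of Foxp3 and which was named after its values were seen, was at 2.26, 2.32 and 2.35 TPM in the WT MI libraries and 0.623, 0.819, 0.117 and 0.302 TPM in the Foxp3DTR MI libraries and passed as lower (log2 fold change -1.33, SE 0.25, adjusted p = 0.0259) and, of the 7 fits that left out 1 library each, only in that without WT library 2. It was the only gene past the threshold among the 38 tested within 5 Mb of Foxp3 on the X chromosome, which is 2.63% of them.

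Transcripts of other blood cells differed between the groups in spite of the sort. The summed level of 12 T cell genes was 8.90, 11.1 and 12.6 TPM in the WT MI libraries and 38.8, 159, 95.9 and 113 TPM in the Foxp3DTR MI libraries, and 8 of the 12 passed as higher, among them Cd3d, Cd3e and Cd3g, the chains of the T cell receptor complex. Between 1 and 10 of these genes passed when 1 library was left out, 1 without WT library 3, Foxp3DTR library 2 or Foxp3DTR library 3 and 10 without Foxp3DTR library 1. Genes under 1 TPM in every WT MI library, such as Cd3e, met the filter only through the Foxp3DTR libraries. That favours counts of higher genes in this and the following lists. Summed neutrophil genes amounted to 561, 358 and 528 TPM in the WT MI libraries and 1439.8, 2414, 1802 and 2708 TPM in the Foxp3DTR MI libraries, with 7 of 12 tested genes higher. Neither sum overlapped between the groups, and Foxp3DTR library 1 was the lowest of its group in both. Over all tested genes 2.68% passed as higher and 1.93% as lower, and the groups did not overlap for 19.2% of single genes. No such share was counted for sums. Smaller sums that also did not overlap were those of NK and cytotoxic genes (32.7 to 85.4 TPM in WT MI and 123 to 220.3 TPM in Foxp3DTR MI, 3 of 11 higher, 1 without Foxp3DTR library 2), plasma cell genes (25.8 to 37.4 TPM in WT MI and 59.8 to 144 TPM in Foxp3DTR MI, 2 of 4 tested higher, none of them without WT library 3 or Foxp3DTR library 1, 2 or 4) and basophil and mast cell genes (2.65 to 8.12 TPM in WT MI and 14.2 to 46.98 TPM in Foxp3DTR MI, 2 of 7 tested higher, 1 in 5 of the 7 fits that left out a library). Conventional dendritic cell genes were lower in sum (67.97 to 114 TPM in WT MI and 40.1 to 57.2 TPM in Foxp3DTR MI). Yet 5 of the 9 genes were positive in sign, with a median log2 fold change of 0.08, and only 1, Flt3, passed as lower. That call ended whichever library was left out. B cell genes overlapped (14.7 to 19.6 TPM in WT MI and 11.7 to 21.5 TPM in Foxp3DTR MI), with 1 of 4 tested, Cd79b, lower, a call that held only without WT library 2 or Foxp3DTR library 4. The sums of erythroid cells and myeloid progenitors overlapped as well. Yet 6 of 7 tested erythroid and 8 of 9 tested progenitor genes were positive in sign, with median log2 fold changes of 0.74 and 0.76. None of them passed as higher, although 3 progenitor genes did without WT library 2. The 1 progenitor gene that passed was lower, Flt3 again. Among defining markers, Retnlg of neutrophils was listed at 0 in all WT MI libraries, and Ly6g has no row in the tables. In such bulk samples fewer cells of a type and less RNA per cell cannot be told apart, and the part of these cells in the results that follow was not tested.

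**Figure D1:**
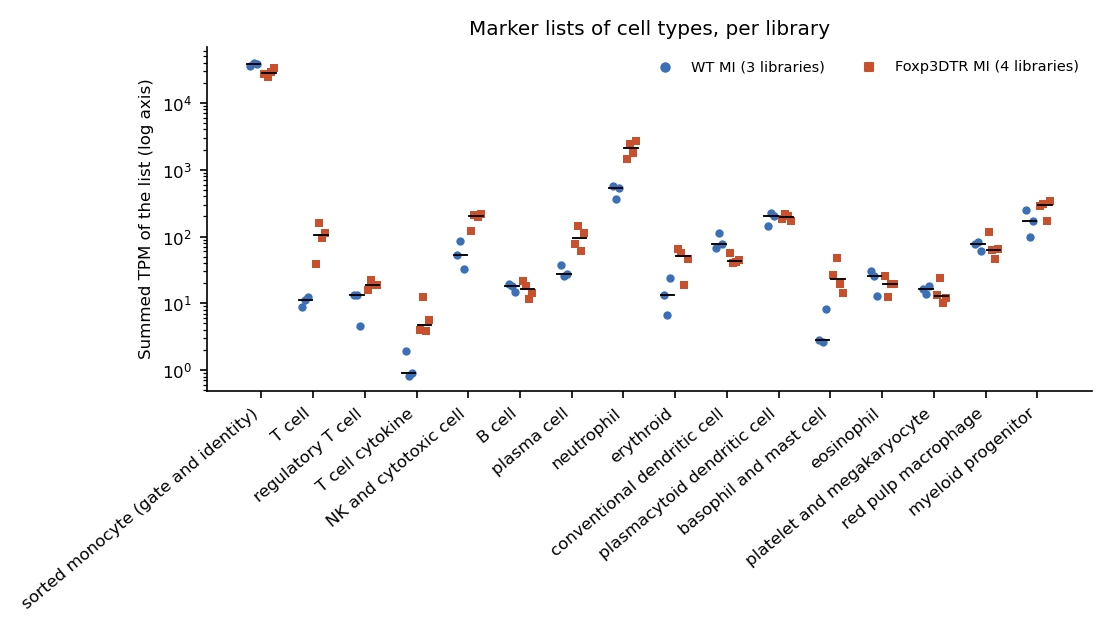
Summed TPM of marker lists per library (vertical log axis, 1 point per library, circles for the 3 WT MI and squares for the 4 Foxp3DTR MI libraries, black lines for medians). T cell sums lay at 8.90 to 12.6 TPM in WT MI and at 38.8 to 159 TPM in Foxp3DTR MI, and neutrophil sums at 358 to 561 and 1440 to 2708 TPM.

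The depth, inferred from coverage and FPKM, was 5.24 to 8.40 per WT MI library and 6.61 to 7.55 per Foxp3DTR library, in units of 1000000 reads. The 10 most abundant RNAs held 24.8 to 30.3% of all TPM in WT MI and 17.3 to 23.03% in Foxp3DTR MI. Because TPM adds up to a fixed total, a change of such RNAs moves the values of all others, and TPM was divided by a factor per library before the fit. Levels below are TPM as deposited, whereas log2 fold changes are Foxp3DTR MI minus WT MI on the scale of log2(scaled TPM + 1), where low genes change by less than their TPM ratio would give. Within a group the libraries correlated at 0.953 to 0.958 for WT MI and at 0.967 to 0.972 for Foxp3DTR MI over all tested genes.

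At an adjusted p under 0.05 in limma with Benjamini-Hochberg adjustment, 579 genes differed, which is 4.61% of those tested, 337 being higher (2.68%) and 242 lower (1.93%) in Foxp3DTR MI. After scaling, groups did not overlap for any of the 579 genes, whereas 2416 genes in all, 19.2% of those tested, had groups that did not overlap. Of the called genes 245 changed by 1 or more on the log2 scale, 175 upwards and 70 downwards. The median log2 fold change was 1.02 among the higher and -0.82 among the lower genes. Without scaling the median of all genes was 0.225 and 1210 genes passed, of which 90.7% were higher, against 58.2% with scaling. Tested against a minimum log2 fold change of 1, 15 genes remained, all of them higher, among them Serpina3g, Serpina3f, Cxcl9, Socs1, Iigp1, S100a9 and 6 guanylate-binding proteins. No gene was lower in that test, in which 0 of 242 falls passed.

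**Figure D2:**
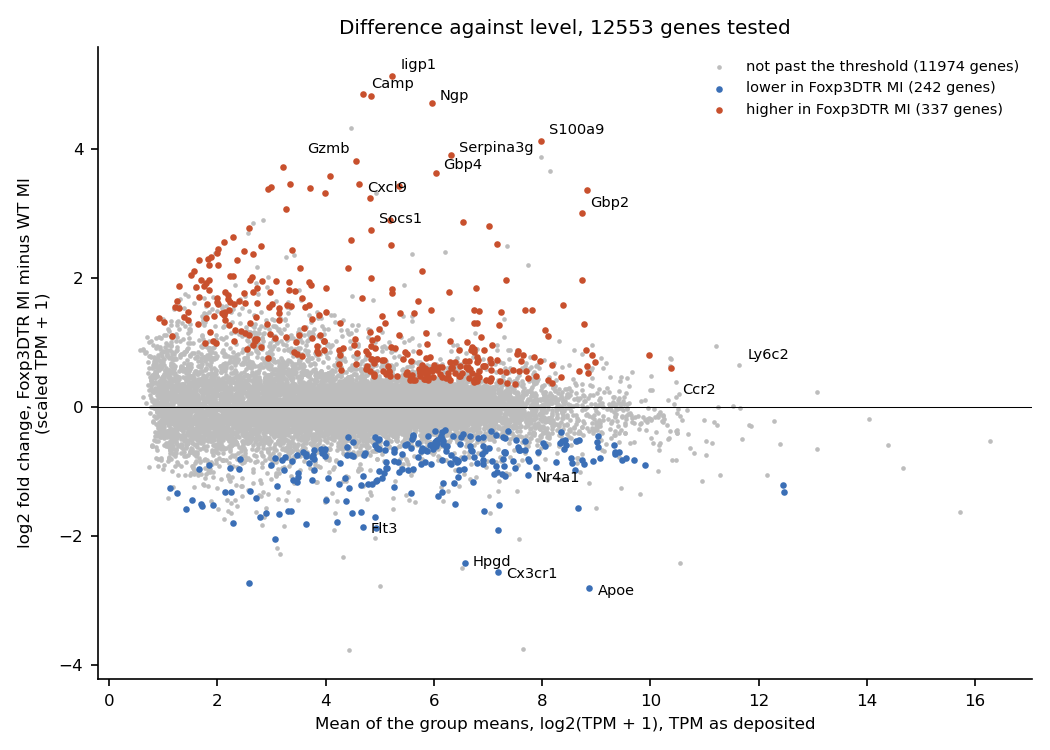
Log2 fold change, Foxp3DTR MI minus WT MI, on the scaled TPM + 1 scale (vertical axis) against the mean level of both groups as log2(TPM + 1) (horizontal axis), 1 point per tested gene. Red points are the 337 higher genes, blue points the 242 lower genes and grey points genes that did not pass, and rises past the threshold reach a log2 fold change of 5.13 for Iigp1 and falls one of -2.81 for Apoe.

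The gene of lowest p was Serpina3g, a serpin that inhibits cysteine proteases and is induced by interferon-gamma. It was at 6.22, 9.55 and 7.18 TPM in the WT MI libraries and 158, 152, 161 and 128 TPM in the Foxp3DTR MI libraries (log2 fold change 3.91, SE 0.13, adjusted p = 8.25e-06). Its neighbour Serpina3f on chromosome 12 was at 0.969, 1.40 and 1.61 TPM in the WT MI libraries and 31.96, 29.2, 34.98 and 26.02 TPM in the Foxp3DTR MI libraries (log2 fold change 3.57, SE 0.17, adjusted p = 7.3e-05). Both genes were low in every WT MI library and high in every Foxp3DTR library, with little spread within either group. In sham-operated mice Serpina3g was at 10.3, 5.77 and 64.3 TPM, so that sham library 3 lay between the groups. These serpins are near copies and may share reads. Serpina3h, Serpina3i and Serpina3n of the same cluster, named after their values were seen, were higher as well.

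The promoter windows of both genes (RefSeq, build GRCm38.p6, 250 bases before to 50 after the annotated start) are shown because the genes lead the ranking by p and because each holds the GAS core, the letters TTCNNNGAA of the gamma-activated site. Capitals mark the matches to this core and, for Serpina3f, to the overlapping IRF core GAAANNGAA read on the other strand. The windows are at chr12:104235897-104236196, plus strand and at chr12:104214294-104214593, plus strand. A second window of Serpina3f, at chr12:104214383-104214682, holds the same matches and is not shown.
Serpina3g: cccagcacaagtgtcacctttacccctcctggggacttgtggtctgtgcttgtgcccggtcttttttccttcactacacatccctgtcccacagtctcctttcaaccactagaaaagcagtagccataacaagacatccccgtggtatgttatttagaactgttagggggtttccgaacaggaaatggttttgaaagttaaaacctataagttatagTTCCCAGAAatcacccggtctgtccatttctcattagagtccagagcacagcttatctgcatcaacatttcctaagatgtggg
Serpina3f: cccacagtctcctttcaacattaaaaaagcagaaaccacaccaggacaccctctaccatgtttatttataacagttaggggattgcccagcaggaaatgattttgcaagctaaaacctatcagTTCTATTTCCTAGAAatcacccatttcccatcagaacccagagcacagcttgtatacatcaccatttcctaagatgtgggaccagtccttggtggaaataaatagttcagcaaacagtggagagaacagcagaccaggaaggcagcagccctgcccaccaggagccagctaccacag

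All 11 measured guanylate-binding proteins, interferon-induced GTPases that attack the vacuoles of intracellular microbes, were higher, with a median log2 fold change of 2.52 against -0.00061 over all genes tested. Gbp2, the most abundant, was at 51.3, 141 and 68.05 TPM in the WT MI libraries and 717, 729, 976 and 643 TPM in the Foxp3DTR MI libraries (log2 fold change 3.00, SE 0.30, adjusted p = 0.00247). Gbp4 was at 5.30, 10.9 and 6.40 TPM in the WT MI libraries and 118, 128, 159 and 80.4 TPM in the Foxp3DTR MI libraries (log2 fold change 3.63, SE 0.24, adjusted p = 0.000622). The groups were far apart for both, although WT library 3 stood above the other WT libraries. Gbp5, which the study names and which promotes inflammasome assembly, was at 22.1, 60.98 and 31.3 TPM in the WT MI libraries and 218, 265, 316 and 189 TPM in the Foxp3DTR MI libraries (log2 fold change 2.52, SE 0.30, adjusted p = 0.00525). Gbp6, Gbp8 and Gbp10 gave log2 fold changes of 3.42, 2.89 and 3.24, Gbp2b, Gbp11 and Gbp7 of 2.49, 2.44 and 1.97, and Gbp3 and Gbp9 of 1.50 and 1.49. Within the groups the family moved together, since WT library 3 was the highest of its group for 11 of 11 members, Foxp3DTR library 3 the highest for 11 and Foxp3DTR library 4 the lowest for 9. All 11 passed whichever library was left out. Summed over the family the level was 246, 519 and 294 TPM in the WT MI libraries and 1993, 2153, 2595 and 1619.5 TPM in the Foxp3DTR MI libraries, and in the sham libraries 316, 244 and 987 TPM. Members on chromosomes 3 and 5 lie in tandem arrays and may share reads, so single values are uncertain.

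Of the 13 tested immunity-related GTPases, another family of interferon-induced defence enzymes, 10 were higher and none lower, with a median of 1.49. Iigp1 had the largest rise of all ranked genes, at 0.360, 1.40 and 0.466 TPM in the WT MI libraries and 102, 32.8, 104 and 50.5 TPM in the Foxp3DTR MI libraries (log2 fold change 5.13, SE 0.41, adjusted p = 0.00112). It was near 0 in WT MI, and Foxp3DTR libraries 1 and 3 had the highest levels. Tgtp1 and Tgtp2, a pair of near-identical genes, rose by 2.86 and 2.81, and Igtp, at 52.7, 95.1 and 63.1 TPM in the WT MI libraries and 207, 226, 293 and 189 TPM in the Foxp3DTR MI libraries, by 1.47 (adjusted p = 0.00892). Irgm1 and Irgm2, which are among the regulatory members, rose by 1.09 and 1.30. Gm4951, Gm4841 and F830016B08Rik, which stand next to Iigp1 on chromosome 18, rose by 4.82, 2.29 and 3.40, and Gm12250 by 1.49. Leaving out 1 library left 8 to 10 members past the threshold.

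Among 15 genes of the interferon-gamma pathway 4 were higher and none lower, with a median of 0.26. Socs1, the feedback inhibitor of Jak kinases, was at 4.93, 6.52 and 4.69 TPM in the WT MI libraries and 34.7, 53.8, 65.5 and 44.6 TPM in the Foxp3DTR MI libraries (log2 fold change 2.74, SE 0.22, adjusted p = 0.00112). Jak2, the receptor-associated kinase, was at 76.3, 78.2 and 69.98 TPM in the WT MI libraries and 157, 162, 149 and 123 TPM in the Foxp3DTR MI libraries (log2 fold change 0.72, SE 0.07, adjusted p = 0.00277). For both genes every Foxp3DTR library lay above every WT MI library. Irf1, a transcription factor of the interferon response, was at 77.6, 168 and 74.4 TPM in the WT MI libraries and 298, 312, 470.2 and 282 TPM in the Foxp3DTR MI libraries (log2 fold change 1.50, SE 0.28, adjusted p = 0.0259), and its call ended when WT library 4 or Foxp3DTR library 2, 3 or 4 was left out. The receptor chain Ifngr1 was at 772, 674 and 637 TPM in the WT MI libraries and 652, 561, 625 and 591 TPM in the Foxp3DTR MI libraries and missed the threshold (log2 fold change -0.43, adjusted p = 0.0815). Ifng, which encodes the ligand, was near the limit of the measurement at 0.644, 0.519 and 0 TPM in the WT MI libraries and 0.344, 7.24, 1.25 and 2.14 TPM in the Foxp3DTR MI libraries (adjusted p = 0.308).

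Cxcl9, a chemokine that draws T cells through Cxcr3, was at 2.27, 3.59 and 1.99 TPM in the WT MI libraries and 45.98, 54.6, 39.96 and 36.9 TPM in the Foxp3DTR MI libraries (log2 fold change 3.45, SE 0.17, adjusted p = 7.3e-05). It passed in every setting, and the lowest Foxp3DTR library lay far above the highest WT MI library. In sham-operated mice it was at 7.13, 3.90 and 33.5 TPM, sham library 3 again standing near the Foxp3DTR level. Cxcl10, which binds the same receptor, was at 18.9, 33.7 and 6.17 TPM in the WT MI libraries and 55.8, 106, 110.0 and 80.1 TPM in the Foxp3DTR MI libraries (log2 fold change 2.10, SE 0.47, adjusted p = 0.0423), and Ccl5, a chemokine of T cells and NK cells as well, at 25.2, 30.2 and 23.6 TPM in the WT MI libraries and 49.5, 102, 88.2 and 142 TPM in the Foxp3DTR MI libraries (log2 fold change 1.49, SE 0.34, adjusted p = 0.0465). Neither call was stable, since Cxcl10 passed in only 1 and Ccl5 in 1 of the 7 fits that left out a library. The remaining 10 of 13 tested chemokine ligands did not pass.

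Cd274, which encodes the inhibitory ligand PD-L1, was at 15.4, 15.4 and 10.7 TPM in the WT MI libraries and 58.3, 69.7, 73.2 and 36.9 TPM in the Foxp3DTR MI libraries (log2 fold change 1.77, SE 0.19, adjusted p = 0.00379). Cd200r1, an inhibitory receptor of myeloid cells, was at 13.1, 15.3 and 10.6 TPM in the WT MI libraries and 33.8, 33.3, 28.6 and 27.6 TPM in the Foxp3DTR MI libraries (log2 fold change 0.96, SE 0.12, adjusted p = 0.00615). These were the 2 higher genes among 12 tested costimulatory and checkpoint molecules, and none was lower. Il18bp, the secreted inhibitor of interleukin-18, was at 13.4, 21.4 and 21.7 TPM in the WT MI libraries and 59.4, 57.4, 76.9 and 55.7 TPM in the Foxp3DTR MI libraries (log2 fold change 1.46, SE 0.20, adjusted p = 0.00885), every Foxp3DTR library exceeding 55 TPM. Batf2, a transcription factor of inflammatory macrophages, rose by 2.15 (adjusted p = 0.0164) and Tfec, a transcription factor of the Mitf family, by 1.77 (adjusted p = 0.00112). Tfec was at 38.01, 25.9 and 26.5 TPM in the WT MI libraries and 130.5, 138, 108 and 116 TPM in the Foxp3DTR MI libraries, so that its groups were well separated.

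Cxcl9 and Gbp2 were added to the promoters shown here after their values were seen, because they stand for the chemokine and the GTPase response. Both windows hold the IRF core, which interferon regulatory factors such as Irf1 can bind and which is in capitals. They are at chr5:92328030-92328329, minus strand and at chr3:142620413-142620712, plus strand of GRCm38.p6.
Cxcl9: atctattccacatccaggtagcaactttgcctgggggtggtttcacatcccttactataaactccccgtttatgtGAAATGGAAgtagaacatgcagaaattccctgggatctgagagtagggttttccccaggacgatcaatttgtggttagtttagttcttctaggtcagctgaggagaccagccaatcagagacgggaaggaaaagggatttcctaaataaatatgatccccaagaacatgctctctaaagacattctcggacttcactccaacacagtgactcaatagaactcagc
Gbp2: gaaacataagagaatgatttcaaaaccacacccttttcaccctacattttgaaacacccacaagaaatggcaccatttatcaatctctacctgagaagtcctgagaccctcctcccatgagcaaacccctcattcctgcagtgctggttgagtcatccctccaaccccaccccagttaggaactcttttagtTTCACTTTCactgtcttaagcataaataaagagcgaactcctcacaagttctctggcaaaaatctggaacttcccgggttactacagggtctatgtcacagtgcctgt

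**Figure D3:**
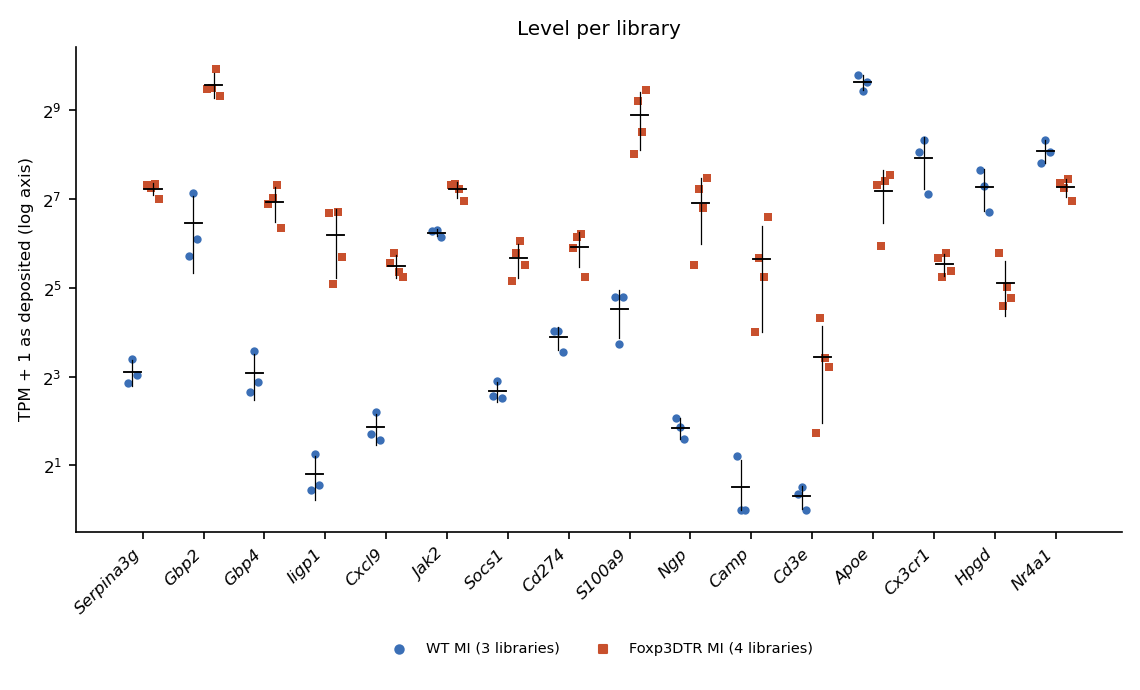
TPM + 1 per library (vertical log axis) for 16 genes, with circles for the 3 WT MI and squares for the 4 Foxp3DTR MI libraries, black bars for means and vertical lines for the SD. The groups do not overlap for any gene shown, and the last 4 genes, Apoe, Cx3cr1, Hpgd and Nr4a1, are lower in Foxp3DTR MI.

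In the pathway of MHC class I presentation, 12 of 22 tested genes were higher and none lower, with a median of 0.60. The changes were small. Psmb8, a catalytic subunit of the immunoproteasome, was at 194, 225 and 188 TPM in the WT MI libraries and 351, 386, 406 and 361 TPM in the Foxp3DTR MI libraries (log2 fold change 0.65, SE 0.10, adjusted p = 0.0148). H2-Q7, a non-classical class I molecule, was at 38.3, 46.3 and 34.7 TPM in the WT MI libraries and 73.96, 86.2, 88.1 and 73.8 TPM in the Foxp3DTR MI libraries (log2 fold change 0.77, SE 0.11, adjusted p = 0.0104). The peptide transporter genes Tap1 and Tap2 rose by 0.81 and 0.75, the trimming peptidase Erap1 by 0.60 and the chaperones Calr and Pdia3 by 0.80 and 0.69. Psmb9, Psme2, Tapbpl, H2-Q4 and H2-T22 made up the 12. Psmb9, Tap1, Psmb8 and Tap2 are neighbours on chromosome 17. Between 2 and 9 members passed when 1 library was left out, the fewest without Foxp3DTR library 2, and none passed when the sham libraries shared the estimate of the spread.

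The 10 genes of MHC class II presentation did not follow, since 0 passed in either direction and the median was 0.07. Cd74, the invariant chain, was at 550.4, 863 and 412 TPM in the WT MI libraries and 1229.5, 924, 1114 and 800.5 TPM in the Foxp3DTR MI libraries (adjusted p = 0.2). Ciita, the class II transactivator and itself a target of interferon-gamma, was at 28.3, 66.2 and 19.6 TPM in the WT MI libraries and 64.5, 51.7, 61.2 and 36.8 TPM in the Foxp3DTR MI libraries (adjusted p = 0.529). WT library 3 lay within or above the range of the Foxp3DTR libraries for Ciita. None of the 10 had an adjusted p under 0.05 in any other setting either.

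Among genes of the response to type I interferon 2 of 37 were higher and 0 lower, with a median of -0.01. Over all tested genes 2.68% passed as higher and 1.93% as lower. The 2 genes were Ifi44 (1.58, adjusted p = 0.0368) and the nucleic acid sensor Zbp1 (0.88, adjusted p = 0.0384). Rsad2, an antiviral enzyme and among the typical genes of this response, was at 18.7, 39.03 and 31.7 TPM in the WT MI libraries and 17.99, 16.8, 23.4 and 14.2 TPM in the Foxp3DTR MI libraries (adjusted p = 0.0817). WT library 2 lay within the range of the Foxp3DTR libraries and the other 2 WT libraries above it. Of 9 tested DNA sensors of the Ifi200 family and Aim2, 0 passed, and of 7 Schlafen genes 1 passed, Slfn9 (0.57, adjusted p = 0.0465). The calls were not stable, since Ifi44 and Zbp1 each passed in 2 and Slfn9 in 1 of the 7 fits that left out a library. In the type I list 0 genes were higher without WT library 4 or Foxp3DTR library 1 or 2 and 1 was in each of the 4 other fits, and without WT library 2, 4 genes passed as lower.

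**Figure D4:**
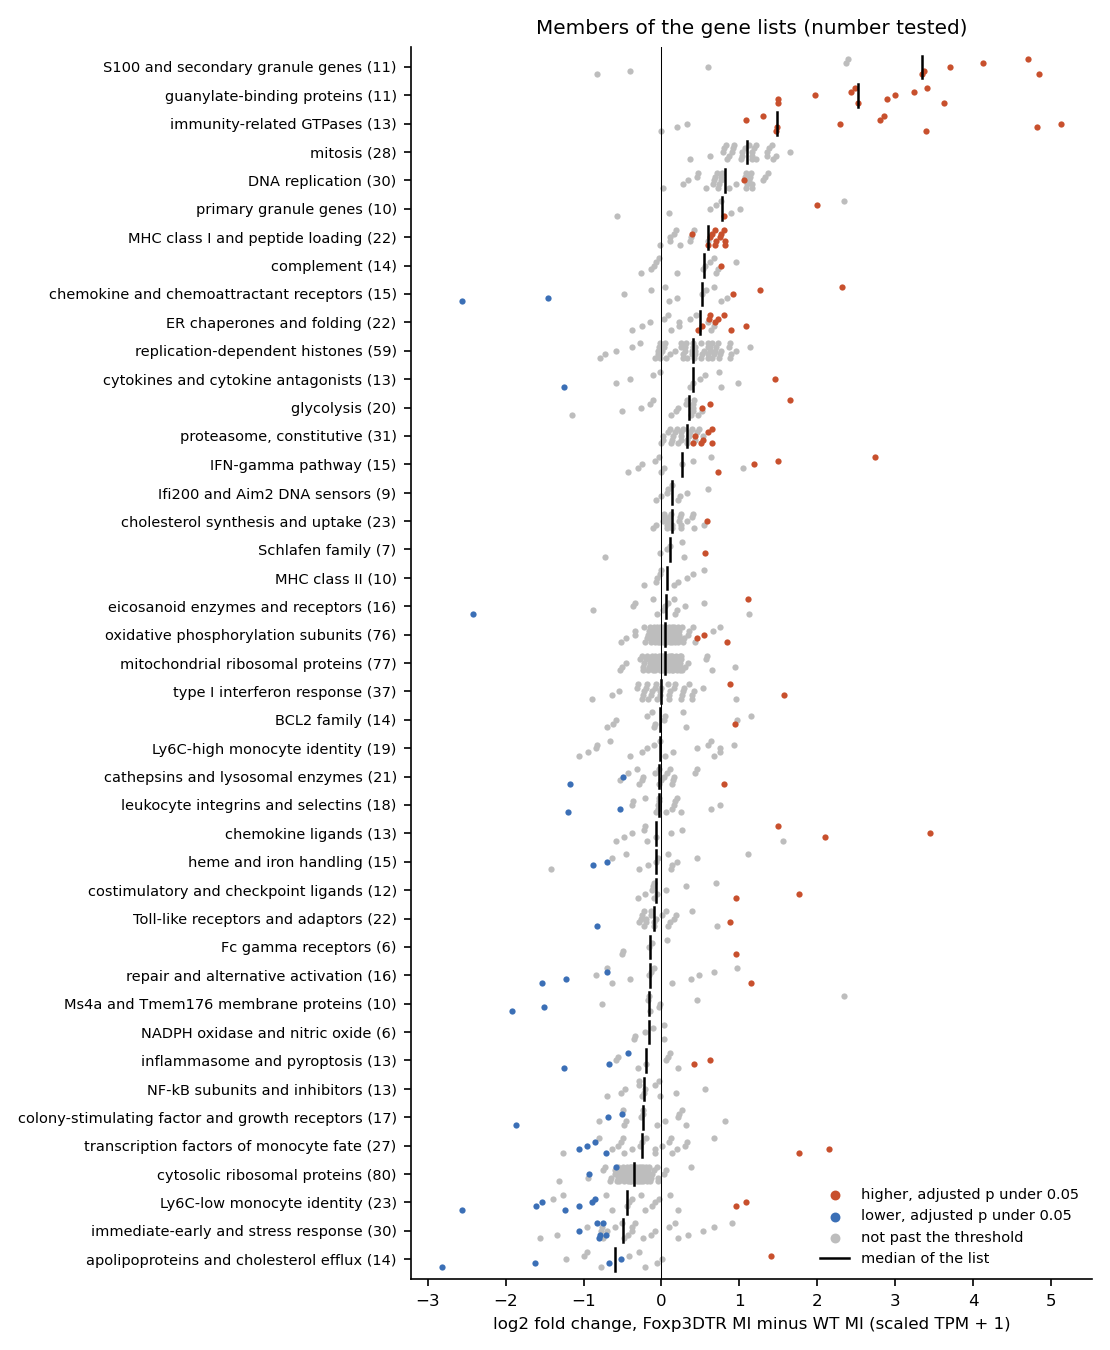
Log2 fold change of each tested gene of 43 gene lists (horizontal axis, Foxp3DTR MI minus WT MI, scaled TPM + 1), with lists ordered by their median (black line) and the number tested in brackets. Red and blue points passed as higher and lower, grey points did not pass. All 11 guanylate-binding proteins are red, while the 37 genes of the type I interferon response have a median of -0.01.

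Genes of neutrophil granules and the S100 proteins formed another group of large rises. Of 11 tested genes 6 were higher and none lower, and the median was 2.88 without Retnlg, which was listed at 0 in all WT MI libraries. S100a9, a subunit of calprotectin, was at 26.7, 12.4 and 26.6 TPM in the WT MI libraries and 259.8, 592, 362 and 703 TPM in the Foxp3DTR MI libraries (log2 fold change 4.12, SE 0.42, adjusted p = 0.00277). Ngp, a protein of secondary granules, was at 3.19, 2.63 and 2.01 TPM in the WT MI libraries and 44.6, 148, 110.1 and 177 TPM in the Foxp3DTR MI libraries (log2 fold change 4.71, SE 0.45, adjusted p = 0.00229). In both genes Foxp3DTR library 1 was lowest and library 4 highest. The antimicrobial peptide gene Camp was at 1.30, 0 and 0 TPM in the WT MI libraries and 15.03, 49.7, 36.7 and 96.2 TPM in the Foxp3DTR MI libraries (log2 fold change 4.85, SE 0.61, adjusted p = 0.00652) and lactotransferrin, Ltf, at 0.284, 0 and 0 TPM in the WT MI libraries and 5.12, 23.1, 15.7 and 21.7 TPM in the Foxp3DTR MI libraries (log2 fold change 3.71, SE 0.48, adjusted p = 0.00697). Camp and Ltf were listed at 0 in 2 WT MI libraries each, so their fitted sizes depend on the added 1 TPM. Neither could have met the filter without the Foxp3DTR libraries, which favours a call as higher. S100a8, the partner of S100a9, rose by 3.35 (adjusted p = 0.029), and that call ended without WT library 4 or without any 1 of the Foxp3DTR libraries. Retnlg was at 5.41, 32.3, 5.58 and 9.86 TPM in Foxp3DTR MI. Foxp3DTR library 1 was the lowest of its group for 6 of 6 higher genes. In sham-operated mice S100a9 was at 66.9, 87.8 and 419 TPM and Ngp at 27.6, 10.98 and 149.6 TPM, so that all 3 sham libraries lay above the WT MI libraries.

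Camp ranked highest outside the interferon-induced families, and its promoter (chr9:109849407-109849706, minus strand, GRCm38.p6) is shown for that rank. It holds neither the GAS nor the IRF core, and no letter is in capitals. This is the usual case, since either core stood in only 27.7% of the higher and 16.3% of the tested genes with a window. The windows above were chosen in part for holding a core or after the values of their genes were seen. Setting Camp beside them therefore cannot tell whether granule and interferon-induced genes differ in these cores.
Camp: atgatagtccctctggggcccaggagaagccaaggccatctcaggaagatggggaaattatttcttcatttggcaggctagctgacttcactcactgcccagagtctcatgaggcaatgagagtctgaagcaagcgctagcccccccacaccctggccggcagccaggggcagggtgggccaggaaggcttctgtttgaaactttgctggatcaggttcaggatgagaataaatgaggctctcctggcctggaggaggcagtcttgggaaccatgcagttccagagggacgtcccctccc

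Of 10 tested genes of the primary granule list none was lower and 2 were higher, Calr, best known as a chaperone of the endoplasmic reticulum, and Nkg7, best known from cytotoxic cells. The enzymes of early granules did not pass, Mpo, Elane and Prtn3 being at log2 fold changes of 0.76, 1.01 and 0.62, all with an adjusted p above 0.2. The count of higher genes was 0 without WT library 4 or Foxp3DTR library 2, 3 or 4, 1 without WT library 3 and 4 without WT library 2. Cxcr2, the chemokine receptor of neutrophils, was at 0.255, 0.116 and 0 TPM in the WT MI libraries and 3.31, 8.34, 4.95 and 4.33 TPM in the Foxp3DTR MI libraries (log2 fold change 2.31, SE 0.29, adjusted p = 0.00602). Ccr1, a receptor of inflammatory chemokines, was at 69.2, 65.2 and 95.8 TPM in the WT MI libraries and 208, 213, 211 and 235 TPM in the Foxp3DTR MI libraries (log2 fold change 1.26, SE 0.18, adjusted p = 0.0101). The groups did not overlap for either gene. Of 15 tested chemoattractant receptors 3 were higher and 2 were lower, Cx3cr1 and S1pr5.

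Transcripts of cytotoxic and T cells made up a further group. Gzmb, which encodes granzyme B, was at 1.09, 2.37 and 1.36 TPM in the WT MI libraries and 18.4, 60.5, 40.1 and 55.01 TPM in the Foxp3DTR MI libraries (log2 fold change 3.81, SE 0.41, adjusted p = 0.00322). Cd8b1, a chain of the CD8 coreceptor, was at 1.07, 0.226 and 0 TPM in the WT MI libraries and 5.03, 28.8, 17.8 and 20.2 TPM in the Foxp3DTR MI libraries (log2 fold change 3.46, SE 0.54, adjusted p = 0.0133). Thy1, a surface protein of T cells, was at 0.896, 2.63 and 0 TPM in the WT MI libraries and 9.38, 30.04, 21.6 and 31.7 TPM in the Foxp3DTR MI libraries (log2 fold change 3.40, SE 0.54, adjusted p = 0.0137). All 3 genes were lowest in Foxp3DTR library 1, as were 8 of the 8 higher T cell genes and 3 of the 3 higher NK and cytotoxic genes. In the sham libraries Gzmb was at 7.25, 2.29 and 43.3 TPM and Thy1 at 2.38, 1.76 and 33.5 TPM, sham library 3 lying within the Foxp3DTR range or just above it. Cd3e was at 0.271, 0.431 and 0 TPM in the WT MI libraries and 2.31, 19.0, 9.63 and 8.29 TPM in the Foxp3DTR MI libraries (log2 fold change 2.77, SE 0.53, adjusted p = 0.0269). A group of 4 Gimap genes, GTPases of lymphocytes that stand side by side on chromosome 6, was higher as well and was named after its values were seen. The promoter of Gzmb is shown because, after Serpina3g, it is the next gene in the ranking whose window was found to hold 1 of the cores, a GAS core in capitals that lies after the start of transcription (chr14:56262285-56262584, minus strand, GRCm38.p6).
Gzmb: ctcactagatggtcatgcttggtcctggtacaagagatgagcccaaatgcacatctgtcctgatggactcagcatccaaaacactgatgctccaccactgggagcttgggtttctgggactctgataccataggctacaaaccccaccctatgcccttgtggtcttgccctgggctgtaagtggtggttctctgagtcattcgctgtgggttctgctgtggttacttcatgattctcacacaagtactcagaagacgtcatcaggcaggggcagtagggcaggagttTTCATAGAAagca

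Among the genes that were lower, those of Ly6C-low patrolling monocytes stood out by count. Of 23 tested, 7 were lower and 2 higher, with a median of -0.44. Cx3cr1, which binds fractalkine, was at 266, 324 and 138 TPM in the WT MI libraries and 50.3, 36.8, 54.2 and 40.5 TPM in the Foxp3DTR MI libraries (log2 fold change -2.56, SE 0.25, adjusted p = 0.00247). Adgre4, an adhesion receptor related to F4/80, was at 176, 202 and 143 TPM in the WT MI libraries and 77.3, 68.9, 67.6 and 52.1 TPM in the Foxp3DTR MI libraries (log2 fold change -1.61, SE 0.11, adjusted p = 0.00075) and had the lowest p of all falls with Tmem176a. Ace, the angiotensin-converting enzyme, was at 244, 231 and 149 TPM in the WT MI libraries and 99.5, 77.9, 87.3 and 69.2 TPM in the Foxp3DTR MI libraries (log2 fold change -1.53, SE 0.16, adjusted p = 0.00277). For all 3 genes each Foxp3DTR library lay below each WT MI library. In the sham libraries Cx3cr1 was at 327, 250.2 and 137 TPM, Adgre4 at 228, 164 and 79.1 TPM and Ace at 256, 194 and 100.45 TPM. For Adgre4 and Ace sham library 3 lay just above the Foxp3DTR range. Nr4a1, the transcription factor on which Ly6C-low monocytes depend, was at 226, 323 and 267 TPM in the WT MI libraries and 164, 151, 174 and 124 TPM in the Foxp3DTR MI libraries (log2 fold change -1.06, SE 0.13, adjusted p = 0.00602). It was lower in every Foxp3DTR library and passed in all 7 fits that left out a library. In the sham libraries Nr4a1 was at 350, 617 and 164.6 TPM, sham library 3 lying within the Foxp3DTR range. Pparg, Treml4 and Pou2f2 fell by 1.23, 0.89 and 0.85 on the log2 scale. The 2 members that rose were the Fc receptor gene Fcgr4 (0.95, adjusted p = 0.0262) and the tetraspanin gene Cd9 (1.08, adjusted p = 0.0464). Between 4 and 6 genes passed as lower when 1 library was left out. As higher, 1 passed without WT library 2 or 3 or Foxp3DTR library 2 and 0 in the 4 other fits, Cd9 in none of the 7.

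The 19 tested genes of Ly6C-high identity gave 0 calls in either direction, with a median of -0.02. Lyz1, a lysozyme gene, was at 5572, 5927 and 5915 TPM in the WT MI libraries and 3121, 2695, 3222 and 4398 TPM in the Foxp3DTR MI libraries (log2 fold change -1.06, SE 0.28, adjusted p = 0.0689). The groups did not overlap, with the Foxp3DTR libraries lower, but the gene missed the threshold. Without scaling 7 of these genes passed as higher and 1 as lower. Among other transcription factors of monocyte fate Mef2c (-0.96, adjusted p = 0.00525) and Runx3 (-0.71, adjusted p = 0.0321) were lower, and 21 of the 27 tested did not pass. The call of Runx3 held only without WT library 4. S1pr5, a sphingosine-1-phosphate receptor that guides patrolling monocytes out of the marrow, was at 21.5, 24.5 and 19.1 TPM in the WT MI libraries and 8.14, 8.41, 9.25 and 8.82 TPM in the Foxp3DTR MI libraries (log2 fold change -1.45, SE 0.14, adjusted p = 0.00229).

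Among genes past the threshold the largest fall was that of Apoe, the apolipoprotein that macrophages release to carry cholesterol, at 886, 696 and 801 TPM in the WT MI libraries and 159, 60.7, 168 and 187 TPM in the Foxp3DTR MI libraries (log2 fold change -2.81, SE 0.39, adjusted p = 0.0093). Apoc1, its neighbour on chromosome 7, was at 13.4, 11.7 and 14.6 TPM in the WT MI libraries and 4.48, 2.78, 4.05 and 6.65 TPM in the Foxp3DTR MI libraries (log2 fold change -1.62, SE 0.28, adjusted p = 0.0179). In the sham libraries Apoe was at 1049, 971 and 353 TPM, so that sham library 3 lay between the groups. Scarb1, a receptor for high-density lipoprotein, fell by 0.67 and the scavenger receptor gene Lrp1 by 0.52, so that 4 of 14 tested genes of cholesterol efflux were lower and 1, the lipase gene Lpl (1.41, adjusted p = 0.0472), was higher, a call that held only without WT library 4. The median was -0.60. Leaving out WT library 4 or Foxp3DTR library 3 left 1 lower gene and leaving out Foxp3DTR library 4 gave 5. Of 23 genes of cholesterol synthesis and uptake 1 passed as higher (0 without WT library 4 or Foxp3DTR library 1, 2 or 3), while 21 had a positive sign.

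Hpgd, the enzyme that inactivates prostaglandins, was at 202, 157 and 103 TPM in the WT MI libraries and 54.1, 23.03, 31.6 and 26.4 TPM in the Foxp3DTR MI libraries (log2 fold change -2.42, SE 0.29, adjusted p = 0.00532). Tmem176b, a membrane protein of myeloid cells, was at 244, 207 and 208 TPM in the WT MI libraries and 68.6, 58.5, 68.9 and 77.6 TPM in the Foxp3DTR MI libraries (log2 fold change -1.92, SE 0.15, adjusted p = 0.00112) and its neighbour Tmem176a at 135, 116 and 102 TPM in the WT MI libraries and 51.1, 45.3, 52.7 and 42.6 TPM in the Foxp3DTR MI libraries (log2 fold change -1.51, SE 0.11, adjusted p = 0.00075). Both Tmem176 genes varied little within a group. Lgmn, a lysosomal protease, was at 168, 112 and 132 TPM in the WT MI libraries and 84.3, 63.2, 68.9 and 67.5 TPM in the Foxp3DTR MI libraries (log2 fold change -1.17, SE 0.16, adjusted p = 0.00904). Timp2, an inhibitor of matrix metalloproteinases, was at 31.9, 36.3 and 29.1 TPM in the WT MI libraries and 16.3, 13.95, 15.6 and 17.4 TPM in the Foxp3DTR MI libraries (log2 fold change -1.22, SE 0.14, adjusted p = 0.00525), whereas the metalloproteinase gene Mmp14 was higher at 2.38, 1.44 and 2.95 TPM in the WT MI libraries and 9.10, 6.96, 5.71 and 6.89 TPM in the Foxp3DTR MI libraries (adjusted p = 0.0371). Of 16 tested genes of repair and alternative activation, 3 were lower (Timp2, Hmox1 and Pdgfb) and 1, Mmp14, was higher. Timp2 passed whichever library was left out, whereas Hmox1, Pdgfb and Mmp14 passed in 1 of the 7 fits each. Only 1 gene was lower without WT library 3 or Foxp3DTR library 1, 2 or 3, and Mmp14 passed only without WT library 4.

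Further large falls were found in genes of different roles. Colec12, a scavenger receptor, fell by 1.81, Abca6, a transporter of the ABC family, by 1.72, Sstr4, a somatostatin receptor, by 1.71 and Arsi, a sulfatase, by 1.66. Gm1673 and Gm5086 fell by 1.82 and 2.05. Flt3, the receptor of a growth factor for dendritic cells and progenitors, was at 30.9, 26.5 and 55.6 TPM in the WT MI libraries and 16.4, 5.41, 15.5 and 9.63 TPM in the Foxp3DTR MI libraries (log2 fold change -1.86, SE 0.40, adjusted p = 0.0374). Tgfbr2 and Csf2ra, receptor chains for TGF-beta and for GM-CSF, fell by 0.68 and 0.51, and each of these calls held only without Foxp3DTR library 4.

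Of 30 tested immediate-early and stress genes 6 were lower and none higher, with a median of -0.49. Zfp36, which destabilizes cytokine mRNAs, was at 793, 1073 and 1119 TPM in the WT MI libraries and 631, 708, 635 and 662 TPM in the Foxp3DTR MI libraries (log2 fold change -0.82, SE 0.16, adjusted p = 0.0287). Junb was at 367, 439 and 521 TPM in the WT MI libraries and 252, 321, 303 and 327 TPM in the Foxp3DTR MI libraries (log2 fold change -0.79, SE 0.18, adjusted p = 0.0483), and Btg2, Rhob and Ier5 fell by 0.71, 0.75 and 0.80. The sixth was Nr4a1. WT library 2 was nearest to the Foxp3DTR libraries for Zfp36 and Junb, and without it 9 genes passed, but without WT library 4 or Foxp3DTR library 1 or 3 only 1. Il1b, which encodes interleukin-1 beta, was at 78.7, 42.8 and 32.5 TPM in the WT MI libraries and 18.1, 29.3, 29.4 and 18.8 TPM in the Foxp3DTR MI libraries (log2 fold change -1.25, SE 0.29, adjusted p = 0.0472), and its call ended whichever library was left out. NF-kB subunits and inhibitors gave 0 calls among 13.

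Among innate sensors 1 Toll-like receptor was higher and 1 lower. Tlr4, the receptor of lipopolysaccharide, was at 46.6, 64.99 and 52.03 TPM in the WT MI libraries and 124, 134, 132 and 89.98 TPM in the Foxp3DTR MI libraries (log2 fold change 0.88, SE 0.13, adjusted p = 0.0108). Tlr7, a receptor of single-stranded RNA, was at 574, 476 and 474 TPM in the WT MI libraries and 363, 276, 410.5 and 315 TPM in the Foxp3DTR MI libraries (log2 fold change -0.83, SE 0.16, adjusted p = 0.0273), and its call held only without Foxp3DTR library 2 or 3. The other 20 Toll-like receptors and adaptors did not pass. Among 13 inflammasome genes Pycard and Casp1 were higher (0.62 and 0.41) and Naip2, Naip5 and Il1b lower (-0.43, -0.67 and -1.25), but none of these 5 calls held in all fits that left out a library. In the complement list 1 of 14 passed, properdin (Cfp), at 82.6, 76.04 and 60.9 TPM in the WT MI libraries and 142, 168, 136 and 146 TPM in the Foxp3DTR MI libraries (log2 fold change 0.77, SE 0.12, adjusted p = 0.0118), and 3 passed without WT library 4. Subunits of the NADPH oxidase and nitric oxide synthesis gave 0 calls among 6.

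Genes of cell division were positive in sign throughout but with 1 exception did not pass. All 28 tested mitosis genes were positive in sign and their median was 1.10, and 0 passed. Cdc20, an activator of the anaphase-promoting complex, was at 8.92, 1.47 and 3.08 TPM in the WT MI libraries and 17.3, 21.2, 8.55 and 19.9 TPM in the Foxp3DTR MI libraries (adjusted p = 0.094), so that WT library 2 reached the range of the Foxp3DTR libraries. Summed over the list the level was 839.6, 235 and 312 TPM in the WT MI libraries and 1223, 1419, 581 and 1021 TPM in the Foxp3DTR MI libraries. Without WT library 2, 18 of the 28 passed, and in the 6 other fits that left out a library 0 passed. All 30 DNA replication genes were positive as well, with a median of 0.82, and Mcm3, a subunit of the replicative helicase, passed (log2 fold change 1.06, SE 0.24, adjusted p = 0.0464). Without WT library 2 the number of DNA replication genes past the threshold was 13, while 0 passed in the 6 other fits that left out a library and 0 with all 10 libraries in the fit. Myeloid progenitor genes stood at 97.6 to 249 TPM in WT MI and 168 to 344 TPM in Foxp3DTR MI in sum and overlapped.

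Chaperones of the endoplasmic reticulum were higher in 9 of 22 cases, with a median of 0.50. Sdf2l1, a component of the chaperone complex, was at 78.3, 74.6 and 46.98 TPM in the WT MI libraries and 131, 163, 142 and 144 TPM in the Foxp3DTR MI libraries (log2 fold change 0.90, SE 0.16, adjusted p = 0.0223), and Manf, a secreted stress protein, at 56.6, 49.3 and 43.1 TPM in the WT MI libraries and 89.1, 101, 89.9 and 81.4 TPM in the Foxp3DTR MI libraries (log2 fold change 0.61, SE 0.10, adjusted p = 0.0137). Hspa5, the chaperone BiP, rose by 0.63 and Pdia4, a disulfide isomerase, by 1.08. WT library 4 was the lowest WT library for 9 of these 9 genes, and 0 passed without Foxp3DTR library 2 while 13 passed without WT library 2. Plasma cell genes, which use the same machinery, were higher in 2 of 4 tested cases (Jchain was at 12.5, 3.70 and 9.43 TPM in the WT MI libraries and 47.7, 106, 30.5 and 69.1 TPM in the Foxp3DTR MI libraries). Foxp3DTR library 3 was the lowest of its group for these 2 genes, and library 1 for 7 of the 9 chaperones. Whether plasma cells contribute was not tested.

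Subunits of the constitutive proteasome were higher in 7 of 31 cases with a median of 0.33, the clearest being Psmd13 at 45.2, 46.99 and 39.96 TPM in the WT MI libraries and 85.7, 91.2, 78.6 and 73.9 TPM in the Foxp3DTR MI libraries (log2 fold change 0.65, SE 0.08, adjusted p = 0.0057). Leaving out 1 library left 1 to 13 of them. In glycolysis 3 of 20 passed, the hexokinase gene Hk3 at 16.4, 36.3 and 14.9 TPM in the WT MI libraries and 72.3, 81.4, 90.2 and 74.4 TPM in the Foxp3DTR MI libraries (log2 fold change 1.65, SE 0.26, adjusted p = 0.0133), Pgk1 (0.63) and Pkm (0.52). Without scaling 10 of the 20 passed. Leaving out WT library 2 or 4 left 2 and leaving out any other library left 1, and only Hk3 passed in all 7 of these fits. Oxidative phosphorylation gave 3 of 76, led by Ndufa5 of complex I (0.84, adjusted p = 0.00904), and mitochondrial ribosomal proteins 0 of 77. Of 80 cytosolic ribosomal protein genes 77 were negative in sign, with a median of -0.36, but only 2 passed, among them Rps27 (-0.93, adjusted p = 0.0159).

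Small nucleolar RNAs, which guide the modification of ribosomal RNA, were lower in 11 of 104 cases (10.6%) and higher in 0, and 86 of the 104 were negative in sign. Their median log2 fold change was -0.84. Leaving out 1 library left 4 to 12 of them lower, the fewest without WT library 4, and with all 10 libraries in the fit 2 were. Snord38a was at 68.7, 35.7 and 31.1 TPM in the WT MI libraries and 6.10, 17.97, 11.1 and 20.99 TPM in the Foxp3DTR MI libraries (log2 fold change -1.89, SE 0.43, adjusted p = 0.0472). The 11 RNAs are 59 to 221 bases long, and 10 of them lie inside the span of a host gene, none of which was called. Snora44 and Snora61, both within Snhg12, fell by 1.39 and 1.15 on the log2 scale and Snhg12 itself had a log2 fold change of -0.50 (adjusted p = 0.211).

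MicroRNA loci were called in 7 of 361 cases, 6 lower and 1 higher, and had a median SE of 0.673 against 0.165 for all genes tested. Leaving out 1 library gave 0 to 10 lower and 2 to 6 higher loci, 0 lower without WT library 3 and 10 without WT library 2. Mir6959 was at 4.61, 16.7 and 6.47 TPM in the WT MI libraries and 0.185, 0, 0.168 and 2.38 TPM in the Foxp3DTR MI libraries (log2 fold change -2.73, SE 0.53, adjusted p = 0.0272). Mir1291 was at 14.99, 41.8 and 24.7 TPM in the WT MI libraries and 5.13, 10.2, 7.17 and 9.79 TPM in the Foxp3DTR MI libraries (log2 fold change -1.78, SE 0.35, adjusted p = 0.0287) and Mir669n at 17.8, 36.9 and 40.5 TPM in the WT MI libraries and 7.86, 11.9, 8.55 and 15.4 TPM in the Foxp3DTR MI libraries (log2 fold change -1.65, SE 0.35, adjusted p = 0.0371). The groups did not overlap in any of the 3, but each call held in only 2 of the 7 fits that left out a library. The level is that of the hairpin locus and does not tell its arms apart. Mir1291 lies inside Kansl2 and Mir6959 inside Sbf1, hosts that were not called (log2 fold changes -0.14 and -0.02). Reads of a host and of the locus cannot be told apart. Of 16 called small RNAs with a host, 1 had a host that was called, Mir6353 in Pid1, which was lower (-0.89, adjusted p = 0.0112). The mature sequences of Mir6959, Mir1291 and Mir669n (RefSeq, GRCm38.p6) are given with the seed, bases 2 to 8, in capitals. These 3 loci rank among the 15 largest falls. No seed is shared between them.
mmu-miR-6959-5p: uGGGAAACcugugucgggcugug
mmu-miR-6959-3p: cUGCACCGaccugcucucccag
mmu-miR-1291: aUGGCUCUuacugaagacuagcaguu
mmu-miR-669n: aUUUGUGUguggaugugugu

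Called genes often stood next to each other in the genome. Of 336 placed higher genes 95 (28.3%) had another higher gene within 200 kb, whereas 12.7% of all tested genes had such a neighbour. For 240 lower genes the number was 69 (28.8%, against 10.5%). The longest runs were 6 guanylate-binding proteins at chr5:105014153-105346476 and 5 at chr3:142496934-142638008 and 5 Serpina3 genes at chr12:104214544-104414329 (mm10). There were 5 runs of 4 genes, namely Psmb9, Tap1, Psmb8 and Tap2 at chr17:34182099-34216321, Irgm1, Tgtp1, Tgtp2 and Ifi47 at chr11:48865249-49096987, Larp1, Gm12250, Igtp and Irgm2 at chr11:58009064-58222783, the 4 Gimap genes at chr6:48647234-48770851 and Iigp1 with its 3 neighbours on chromosome 18. Cd3g, Cd3d and Cd3e formed a run of 3 on chromosome 9. Among the lower genes Apoe and Apoc1 formed one with Gemin7 at chr7:19564949-19699188. Neighbours in tandem families can share reads and are no independent counts.

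A promoter window was found for 249 of the 337 higher, 167 of the 242 lower and 9670 of the 12553 tested genes. The GAS core stood in 15.7% of the higher, 7.19% of the lower and 8.56% of the tested genes, against 9.55% of all 27025 genes with a window. For the IRF core, searched on both strands, the shares were 16.5%, 14.4%, 8.90% and 9.76%. Both cores can overlap, and 27.7% of the higher genes held at least 1 of them, against 16.3% of the tested genes. The AP-1 motif TGANTCA stood in 11.6% of the higher and 5.99% of the lower genes, against 593 of the 9670 tested genes and 8.97% of all genes with a window. The E2F core TTTCCCGC stood in 1.61%, 1.80% and 2.44% of the higher, lower and tested genes. All 5 guanylate-binding proteins with a window held the IRF core and 2 the GAS core, and among 9 immunity-related GTPases 7 and 6 did. Of 20 Ly6C-low genes 4 held the IRF core and 0 the GAS core. A match is a description of the letters and was not tested.

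**Figure D5:**
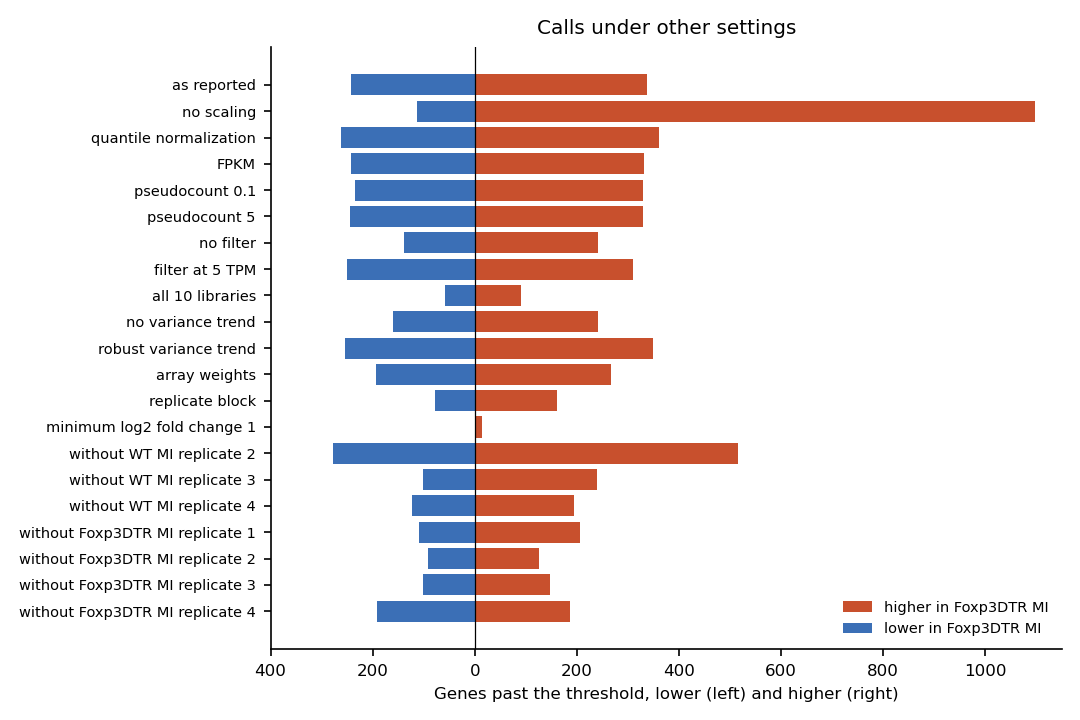
Number of genes higher (red) and lower (blue) in Foxp3DTR MI (horizontal axis) as reported and under each alternative setting (vertical axis). Counts run from 15 and 0 when a minimum log2 fold change of 1 is tested to 1097 and 113 without scaling, against 337 and 242 as reported.

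The libraries of a group did not carry all called groups to the same degree. Over the 337 higher genes Foxp3DTR library 1 was the lowest of its group for 159 and the highest for 15, whereas over all tested genes it was the lowest for 2974 of 12553. This library nevertheless had Serpina3g and Gbp2 at 158 and 717 TPM, and both values lay within the range of the other 3 libraries. Among WT libraries number 3 was the highest for 11 of 11 guanylate-binding proteins and 10 of 10 immunity-related GTPases, while number 2 was the highest for 5 of 6 granule genes and 9 of 9 chaperones. The sham libraries, which had no part in choosing the genes, differed among themselves too. The counts that follow use TPM as deposited, and the share over all tested genes was not counted. Genes were called higher partly through low WT MI values, which favours such counts in every sham library. Sham library 3 lay above every WT MI library for 323 of the 337 higher genes (95.8%), against 171 and 105 for sham libraries 1 and 2, and reached the range of the Foxp3DTR libraries for 124 (36.8%), against 12 and 12. Its T cell, NK and cytotoxic and neutrophil sums were 190, 214 and 1580 TPM, compared with 11.8 and 28.4, 70.9 and 85.7, and 611 and 631 TPM in the other 2.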

How the data were processed

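Splenic monocyte RNA was sequenced as 1 library per sample. The deposited tables hold, per gene, the coverage (mean read depth per base over exons), FPKM and TPM that the authors obtained with StringTie, with no read counts. According to the processing notes of the submitters, reads went through CASAVA 1.4, were trimmed by cutadapt 1.1, aligned by STAR 2.5 to mm10 and summarised by StringTie 1.3.0. No strand setting or annotation release was given in the sources, and reads of overlapping genes cannot be told apart. The authors ran DESeq2, which needs counts and was not repeated here.

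Rows were summed per gene symbol (141 symbols have several rows). The filter kept genes that reached 1 TPM in at least 3 of the 7 libraries. Genes under 1 TPM in every WT MI library met it only through the Foxp3DTR libraries, which favours calls as higher. Each library was scaled by its factor from the median of ratios, and log2(scaled TPM + 1) was then fitted with limma 3.58.1 in R 4.3.3 (empirical Bayes with a variance trend) on the 2 MI groups alone. P-values were adjusted by the Benjamini-Hochberg method over all genes tested, and every adjusted p is of this two-sided test. The script was tested on simulated data. Tables and plots were made with Python 3.11.15, pandas 2.3.3, numpy 2.4.6 and matplotlib 3.10.9. Depth was inferred from the deposited coverage and FPKM and a read length of 50 bases, so single low values carry an unknown counting error.

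Groups follow the labels. Named were the 15 largest called rises and falls with groups that do not overlap and a mean of at least 5 TPM in 1 group, the 5 genes of lowest p in each direction, up to 4 members of lowest p per gene list, up to 3 abundant members per marker list, and the gate genes and genes the study names. Other list members and small RNAs were named after their values were seen. Members and lists were chosen with earlier results of these data known. Alternatives covered scaling, the added constant, the filter, FPKM, the sham libraries, the variance model, library weights, a replicate block, a minimum fold change and each library left out. No column lacked a sample. Results for a few genes are not reported here. Promoter and miRNA sequences were taken from RefSeq (GRCm38.p6) by gene symbol.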

Additional observations from a re-analysis of the deposited data

Results flagged for a closer look

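Of 244 named genes examined in the 4 Foxp3DTR MI libraries, 14 (5.74%) had 1 library whose gap to its nearest neighbour, as a share of the whole range of the group, exceeded Dixon's critical value for 4 samples. About 1 in 20 groups does so by chance. The 3 WT MI libraries are too few for this check.

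Foxp3DTR library 1 was the low one for Nkg7 (0.911), Calr (0.901), Tnfrsf18 (0.847) and Ncf1 (0.841) and the high one for H2-Eb1 (0.837). Foxp3DTR library 2 was the low one for Ear1 (0.899) and Foxp3 (0.831) and the high one for Tbxas1 (0.893) and Cd40 (0.853). Foxp3DTR library 3 was the low one for Ms4a3 (0.884) and the histone genes Hist1h2bm (0.878) and Hist2h2bb (0.877). Foxp3DTR library 4 was the high one for Tnfrsf4 (0.978) and Mir6959 (0.880). Of these genes Calr, Nkg7 and Tbxas1 passed as higher and Mir6959 as lower. Tnfrsf4, a receptor of activated and regulatory T cells, was at 5.39, 5.401, 5.06 and 7.59 TPM in Foxp3DTR MI.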

How the results depend on the processing

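All 579 called genes kept their sign under each alternative in which they were tested. Because their groups did not overlap after scaling, leaving out a library or changing the variance model could not turn a sign, and this count is no check. Against 337 higher and 242 lower genes, 1097 and 113 passed without scaling, 91 and 59 with all 10 libraries in the fit and 162 and 77 with the replicate number as a block. A test against a minimum log2 fold change of 1 left 15 and 0 (0 of the lower genes, with 144 genes at an unadjusted p under 0.05). Lower genes numbered 138 with no filter, where 17934 genes were tested, and 161 with no variance trend. Leaving out 1 library gave 125 to 515 higher and 92 to 277 lower genes, the fewest without Foxp3DTR library 2 and the most without WT library 2. The cause was not tested. In every one of these 7 fits 174 genes passed, 113 higher and 61 lower. WT library 2 stood apart on the second principal component (44.7, against -15.8 to 7.97 for the others).

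Same-numbered libraries deviated from their group means with correlations of 0.055, 0.186 and -0.0037, and pairs with different numbers with -0.203 to 0.141. So few pairs cannot tell whether equal numbers stand for a shared batch, which the labels do not state. The block is given here alone. Of 228 single-gene results, the block left 178 on the same side of the threshold, FPKM 228, quantile normalization 216 and a constant of 0.1 or 5 TPM 224 and 225. With the promoter window cut to the 250 bases before the start, 30 of the 249 higher genes held the GAS core, against 39 in the whole window, and 39 held the IRF core, against 41. Of genes under 5 TPM 3.05% were called, 2.35% higher and 0.700% lower, and of genes over 100 TPM 9.43%, 4.92% higher and 4.51% lower.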

Other observations

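The sham libraries took no part in the fit, and they differ from each other over the genes called between the MI groups. The counts use TPM as deposited, without the share over all tested genes. Genes were called lower partly through high WT MI values, which favours such counts in every sham library. Of the 242 lower genes 152 (62.8%) were below every WT MI library in sham library 3, against 43 and 55 in sham libraries 1 and 2, and 101 (41.7%) reached the Foxp3DTR range, against 22 and 32. The level of guanylate-binding proteins was 316, 244 and 987 TPM in sham libraries 1, 2 and 3, and that of plasma cell genes 31.5, 33.5 and 253 TPM. The labels give the same group for all 3 libraries. The depth of sham library 2 was lowest, at 3.13 in units of 1000000 reads, and that of sham library 3 was 8.04.

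Small nucleolar RNAs of high level were among those lower in Foxp3DTR MI. Snord15b averaged 7388 TPM in WT MI and 3767 TPM in Foxp3DTR MI, and Snord89 575 and 232 TPM. The host gene of Snord15b, Rps3, had a log2 fold change of -0.35 (adjusted p = 0.293 in limma).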
